A study of Mus musculus with 12 samples.

Results

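Cell cycle and DNA replication genes were followed in CD4+ T cells of lupus-prone and control mice. The 45 genes, of 35275 in the deposited table, were taken from a list of gene names that was drawn up with earlier results of these data known. They fall into 27 mitotic genes, which act from the G2 phase to cell division, and 18 S-phase genes, which start and carry out DNA copying. All 45 were found in the table, and all 45 passed the filter on low values, set at 0.5 FPKM on average across the 12 mice. Each also averaged at least 0.5 FPKM in every group, so none entered the test only through the group where it was high.

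The cells came from 12 female mice, 3 in each of 4 groups, and were enriched for CD4+ T cells by negative magnetic selection; each mouse gave 1 RNA-Seq library, so a replicate here is a mouse. The control strain, B6, is C57BL/6J, and SLE123 (B6.NZMSle1/Sle2/Sle3) is a B6 line that carries the Sle1, Sle2 and Sle3 lupus susceptibility intervals of the NZM2410 strain. One group of each strain received 100 μg of anti-CD45RB (clone MB23G2), a tolerance-inducing antibody to the CD45RB form of the CD45 phosphatase, in 5 injections of which the last was on day 7, and the other group of each strain was left untreated. The methods give an age of 9 weeks for the mice, and the legend to the RNA-Seq experiment a range of 9 to 12 weeks. They also describe a further sort on CD25 that the sample labels do not name, so the fraction that was sequenced is not known. Since each library is a bulk preparation, more dividing cells and more of these transcripts per cell cannot be told apart. FPKM, the deposited unit, counts the fragments of a gene per length of transcript and per total of mapped fragments, so levels can be compared between genes. The FPKM values of a library summed to between 412865 and 599488 over all genes, so the scale of a mouse also differs, and TPM values, rescaled to 1 common total, are given where they change a result.

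Resting T cells sit outside the cell cycle in a state called quiescence, and an antigen signal drives them through G1 into S phase. Cyclin D with CDK4 and CDK6, then cyclin E with CDK2, relieve the block that RB-family proteins place on E2F factors, and E2F then switches on the genes of DNA replication. Mitotic genes follow later: in resting cells the DREAM complex holds them down through an element called the CHR, and in dividing cells MYBL2 and FOXM1 work with the same MuvB core to switch them on, often beside CCAAT boxes bound by NF-Y.

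Promoter sequences are shown for members that move together, since these elements are known for the family. RefSeq windows on GRCm38.p6, from 250 bases before to 50 after the gene start, were found for 37 of the 45 members, 22 mitotic and 15 S-phase, among 27025 genes with a window. The word TTTGAA or its variant TTCGAA stood for the CHR, and CCAAT stood for the NF-Y box. For E2F the word TTCCCGC was searched, together with the variant TTGGCGC, the variant TTCGCGC and the variant TTGCCGC. Both strands were read, and a gene counted if any of its windows held a word. A CHR word was in 18 of the 22 mitotic windows (81.8%), in 3 of the 15 S-phase windows (20.0%) and in 21.7% of all genes. An E2F word was in 4 of 22 mitotic genes (18.2%), in 8 of 15 S-phase genes (53.3%) and in 10.9% of all genes. A CCAAT box was in 19 mitotic genes (86.4%), in 10 S-phase genes (66.7%) and in 41.1% of all genes, and 17 mitotic genes (77.3%) held it together with a CHR word, against 8.61% of all genes. A match is a run of letters and not a shown binding site. The stretches below run 5′ to 3′ in the direction of the gene, from 170 bases before the start to 50 after it, with the matched words in capitals. E2F words can overlap each other, as in Mcm6.

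The first 5 are mitotic genes that hold both a CHR word and a CCAAT box: Ccnb2 at chr9:70421505-70421724 (minus strand), Plk1 at chr7:122159265-122159484 (plus strand), Cdc20 at chr4:118437294-118437513 (minus strand), Top2a at chr11:99024140-99024359 (minus strand) and Mki67 at chr7:135716330-135716549 (minus strand). Cyclin B2 (Ccnb2) and polo-like kinase 1 (Plk1) drive entry into mitosis, Cdc20 activates the complex that ends it, Top2a untangles sister DNA, and Mki67 encodes the Ki-67 antigen that coats mitotic chromosomes.
Ccnb2: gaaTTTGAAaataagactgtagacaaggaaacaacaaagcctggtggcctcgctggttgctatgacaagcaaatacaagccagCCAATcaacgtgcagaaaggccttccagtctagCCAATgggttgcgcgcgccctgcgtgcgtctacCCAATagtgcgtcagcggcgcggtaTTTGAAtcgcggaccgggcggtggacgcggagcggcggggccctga
Plk1: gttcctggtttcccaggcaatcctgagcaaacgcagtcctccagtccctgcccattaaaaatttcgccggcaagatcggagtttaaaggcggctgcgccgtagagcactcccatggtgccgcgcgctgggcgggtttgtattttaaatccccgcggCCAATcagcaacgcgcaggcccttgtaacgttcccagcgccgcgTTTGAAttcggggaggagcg
Cdc20: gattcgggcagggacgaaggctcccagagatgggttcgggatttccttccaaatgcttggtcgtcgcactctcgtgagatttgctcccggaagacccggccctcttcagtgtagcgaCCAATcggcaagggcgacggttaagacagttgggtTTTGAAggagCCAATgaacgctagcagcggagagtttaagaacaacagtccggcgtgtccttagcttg
Top2a: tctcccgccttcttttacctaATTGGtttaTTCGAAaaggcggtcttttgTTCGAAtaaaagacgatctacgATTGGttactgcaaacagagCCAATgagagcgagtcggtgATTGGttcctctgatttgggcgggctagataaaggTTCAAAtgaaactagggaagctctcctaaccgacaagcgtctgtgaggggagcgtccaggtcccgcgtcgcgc
Mki67: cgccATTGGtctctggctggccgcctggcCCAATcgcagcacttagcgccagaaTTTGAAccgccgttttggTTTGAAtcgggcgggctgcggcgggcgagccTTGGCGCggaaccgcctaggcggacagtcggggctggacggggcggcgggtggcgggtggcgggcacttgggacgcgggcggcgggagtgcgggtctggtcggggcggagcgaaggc

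The next 4 are S-phase genes with an E2F word: Mcm6 at chr1:128359656-128359875 (minus strand), Mcm3 at chr1:20820263-20820482 (minus strand), Rrm1 at chr7:102441525-102441744 (plus strand) and Cdc6 at chr11:98907981-98908200 (plus strand). Mcm6 and Mcm3 encode subunits of the replicative helicase, Rrm1 the large subunit of ribonucleotide reductase, and Cdc6 a loader of the helicase at origins. In Cdc6 the E2F word was the only one of the 3 kinds in its window.
Mcm6: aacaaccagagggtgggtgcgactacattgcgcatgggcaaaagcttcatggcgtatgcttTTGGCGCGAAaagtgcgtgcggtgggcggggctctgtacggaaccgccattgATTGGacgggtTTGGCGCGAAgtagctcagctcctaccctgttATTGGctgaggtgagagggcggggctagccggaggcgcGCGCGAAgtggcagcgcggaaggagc
Mcm3: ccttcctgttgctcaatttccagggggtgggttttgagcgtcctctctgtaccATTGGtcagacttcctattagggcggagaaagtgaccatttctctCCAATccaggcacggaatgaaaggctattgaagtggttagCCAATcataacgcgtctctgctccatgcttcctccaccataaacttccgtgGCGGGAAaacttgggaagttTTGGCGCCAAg
Rrm1: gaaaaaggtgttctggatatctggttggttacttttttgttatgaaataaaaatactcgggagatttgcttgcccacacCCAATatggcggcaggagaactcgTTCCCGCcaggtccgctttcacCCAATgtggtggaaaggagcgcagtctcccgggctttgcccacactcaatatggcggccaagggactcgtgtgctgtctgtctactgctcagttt
Cdc6: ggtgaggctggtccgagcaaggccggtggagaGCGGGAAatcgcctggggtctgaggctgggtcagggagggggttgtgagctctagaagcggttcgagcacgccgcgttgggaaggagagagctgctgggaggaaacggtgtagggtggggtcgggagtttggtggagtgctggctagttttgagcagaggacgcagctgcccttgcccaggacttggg

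The last pair, Mcm2 at chr6:88898731-88898950 (minus strand) and Pcna at chr2:132253131-132253350 (minus strand), are the 2 members whose difference between the untreated strains did not pass the test below. Mcm2 is a helicase subunit, and Pcna is the sliding clamp of the DNA polymerases. Neither held an E2F word: Mcm2 held a CHR word in the stretch shown, and Pcna a CCAAT box on the other strand.
Mcm2: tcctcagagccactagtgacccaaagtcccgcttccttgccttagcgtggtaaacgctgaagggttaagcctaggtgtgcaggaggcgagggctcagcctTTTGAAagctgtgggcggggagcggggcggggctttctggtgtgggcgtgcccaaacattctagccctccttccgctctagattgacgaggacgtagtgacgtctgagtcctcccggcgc
Pcna: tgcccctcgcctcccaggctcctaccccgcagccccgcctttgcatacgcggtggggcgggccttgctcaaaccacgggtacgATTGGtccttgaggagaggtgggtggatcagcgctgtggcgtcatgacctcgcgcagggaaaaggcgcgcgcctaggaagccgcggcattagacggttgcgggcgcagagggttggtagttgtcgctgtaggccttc

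**Figure D1:**
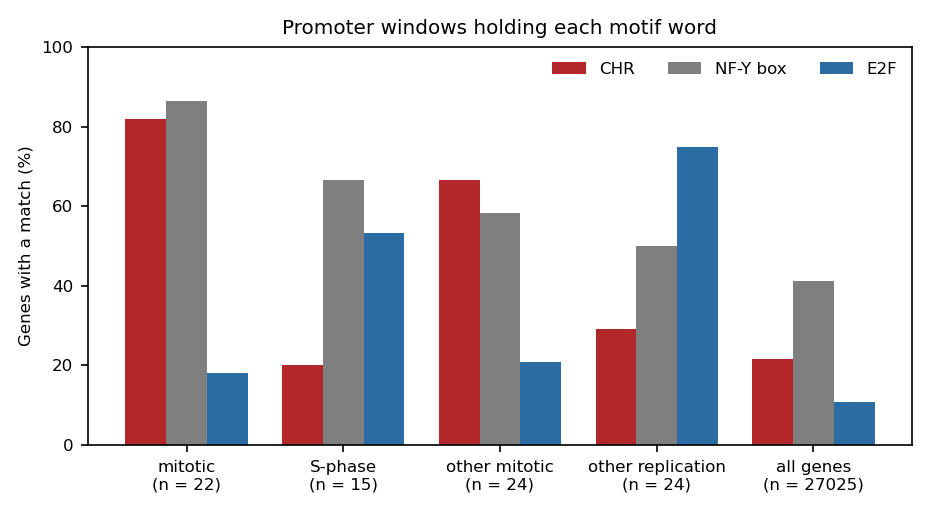
Percent of genes whose promoter window holds each motif word (y axis) in the mitotic and S-phase members, in the other mitotic and other replication genes of the lists used below, and in all 27025 genes with a window. The CHR bar stands at 81.8% for mitotic members and 66.7% for other mitotic genes, and the E2F bar at 53.3% for S-phase members and 75.0% for other replication genes.

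Libraries held 13562933 to 23641603 fragments, as recovered from the steps between FPKM values, and the least covered member, the replication factor Gins2, had 29 to 186 fragments per library. Markers of T cells (8 genes, among them Cd3e and Cd4) summed to between 1760 and 2250 FPKM in the 12 libraries. Other cell types moved with strain: the 6 plasma cell markers summed to 34.7 to 54.9 FPKM in untreated B6, 65.6 to 164 in treated B6, 1840 to 4800 in untreated SLE123 and 968 to 1770 in treated SLE123, and immunoglobulin took at most 0.336% of fragments in B6 and 2.51% to 12.2% in SLE123. Liver transcripts (5 genes) summed to 39.2 to 46.5 FPKM in the 6 B6 libraries and to 44.1 in SLE123 anti-CD45RB replicate 1, and to at most 0.368 in the other 5 SLE123 libraries. SLE123 untreated replicate 3 stood apart with the most immunoglobulin and the lowest T cell markers, and the untreated SLE123 libraries differed in their balance of long and short transcripts. Results that rest on them are given with and without them.

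The question put first was how the strains differ before treatment. In untreated mice 43 of the 45 members were called higher in SLE123 than in B6 (limma, Benjamini-Hochberg adjusted p under 0.05), where 22.8% of the 13115 genes tested were called higher and 20.1% lower. All 45 had a positive log2 fold change, but Mcm2, Mcm4 and Pcna were negative when FPKM was rescaled to TPM, a scale on which the median of all genes was -0.38. The 3 mice of the groups did not overlap, with SLE123 higher, in 44 members, against 29.1% of genes. The median log2 fold change, SLE123 minus B6 on the log2(FPKM + 1) scale, was 1.34 over the members and -0.03 over all genes tested. Mitotic genes had the larger median, 1.54 with 27 of 27 called, and S-phase genes 1.05 with 16 of 18 called.

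The score of a mouse, its mean log2(FPKM + 1) over the genes of a set, showed the same in each animal. Mitotic scores were 2.14, 2.26 and 2.17 in untreated B6 and 3.32, 3.57 and 3.94 in untreated SLE123. S-phase scores were 3.15, 3.21 and 3.2 in B6 and 3.91, 4.19 and 4.39 in SLE123. Neither set overlapped between the strains. The spread was wider in SLE123, with a mitotic SD of 0.314 against 0.065 in B6 (n = 3 each), and 40 of the 45 members had their largest SD among the 4 groups in untreated SLE123. Replicate 1 was the lowest of these 3 mice in 38 members and replicate 3 the highest in 41.

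**Figure D2:**
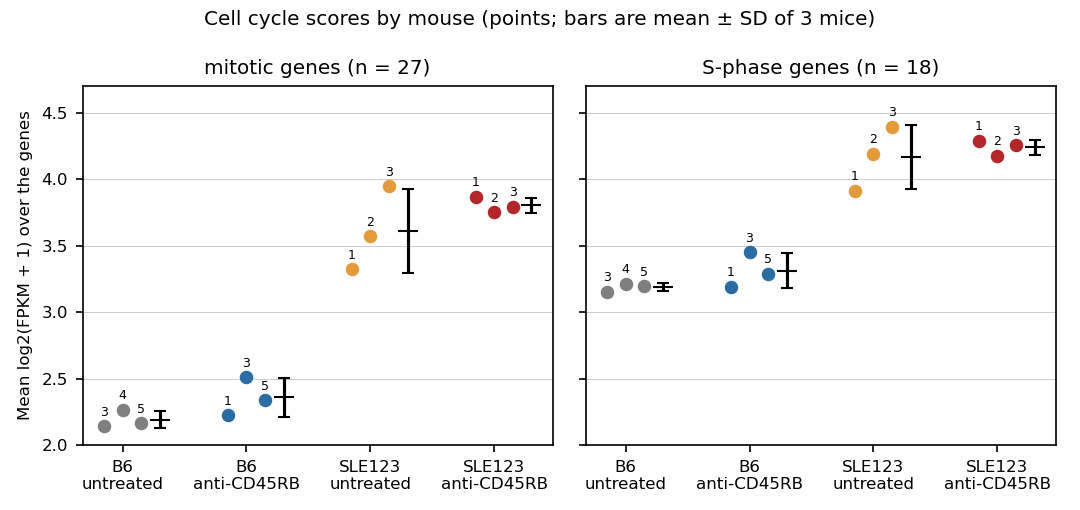
Mean log2(FPKM + 1) over the 27 mitotic genes (left) and the 18 S-phase genes (right), 1 point per mouse with its replicate number, and the mean ± SD of the 3 mice as a bar beside each group. The mitotic scores of B6 lie between 2.14 and 2.51 and those of SLE123 between 3.32 and 3.94, and the untreated SLE123 mice are spread the most.

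Among the mitotic genes, Mki67 (chr7:135689784-135716361, minus strand, GRCm38) had 5.62, 6.55 and 5.69 FPKM in untreated B6 and 22.9, 17.7 and 37.3 FPKM in untreated SLE123. Every SLE123 mouse was above every B6 mouse, and replicate 3 stood above the other SLE123 mice. The log2 fold change was 1.89 ± 0.24 (SE; limma, adjusted p = 0.000925), with a ratio of mean FPKM of 4.36. Top2a went from 10.9, 12.3 and 10.5 FPKM in B6 to 31.6, 35.8 and 50.1 in SLE123, a log2 fold change of 1.70 ± 0.16 (limma, adjusted p = 0.000263). Its lowest SLE123 value was far above its highest B6 value.

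The cyclins and kinase that start mitosis moved alike. Cyclin B1 (Ccnb1) had 3.09, 3.29 and 3.02 FPKM in untreated B6 and 9.55, 10.8 and 14.9 in untreated SLE123 (log2 fold change 1.60 ± 0.15, limma, adjusted p = 0.000258). Cdk1, the kinase that cyclins A2 and B1 bind, had 2.04, 1.82 and 1.61 FPKM in B6 against 5.12, 8.32 and 9.29 (1.57 ± 0.20, limma, adjusted p = 0.000886). In both genes SLE123 replicate 1 was the nearest to B6. Ccna2 and Ccnb2 had log2 fold changes of 1.83 and 1.57. Survivin (Birc5), a subunit of the chromosomal passenger complex with the kinase Aurkb and with Cdca8, had 1.86, 1.77 and 1.81 FPKM in B6 and 4.48, 8.55 and 8.78 in SLE123 (1.51 ± 0.22, limma, adjusted p = 0.00176). Its 2 partners rose as well, Aurkb by 1.73 and Cdca8 by 1.58 log2 units.

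Spindle checkpoint and anaphase genes were also called higher: Bub1 and Bub1b had log2 fold changes of 1.43 and 1.34, and Cdc20 and the ubiquitin carrier Ube2c, which act in the anaphase-promoting complex pathway, 1.72 and 1.82. Of the mitotic kinesins, Kif11, which pushes the spindle poles apart, had 1.54, and Kif23, which acts at the midzone in cytokinesis, had 0.57 (limma, adjusted p = 0.0104). The smallest mitotic difference was that of Cenpa, the histone of the centromere, at 0.53 ± 0.12 (limma, adjusted p = 0.0114). Cenpa, picked out here after its values were seen, had 22.9, 28.5 and 26.4 FPKM in B6 and 32.5, 41.8 and 39.4 in SLE123, and neither its call nor that of Kif23 held on the TPM scale. Stathmin (Stmn1), a microtubule destabiliser that resting lymphocytes also express, had 50.9, 50.9 and 53.3 FPKM in B6 and 72.2, 132 and 111 in SLE123 (0.97 ± 0.20, limma, adjusted p = 0.00779), and its untreated SLE123 mice differed more among themselves than those of B6 did.

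In the S-phase genes the differences ranged widely, from 0.22 to 2.0. The largest of the 45 was that of Rrm2, the small subunit of ribonucleotide reductase, which limits the supply of DNA building blocks: 7.35, 7.26 and 7.99 FPKM in untreated B6 and 23.6, 33.0 and 46.4 in untreated SLE123. These groups stood far apart, with a ratio of mean FPKM of 4.56 and a log2 fold change of 2.0 ± 0.22 (limma, adjusted p = 0.000437). Rrm1, its partner, had 1.04 ± 0.12. Thymidylate synthase (Tyms), which makes dTMP, had 1.95, 2.26 and 2.53 FPKM against 5.30, 6.60 and 6.60 (1.14 ± 0.12, limma, adjusted p = 0.000437), and thymidine kinase (Tk1), which salvages thymidine, 1.29 ± 0.19.

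The 6 subunits of the MCM2-7 helicase form 1 ring, yet their transcripts differed between the strains by unequal amounts. The log2 fold change was 1.06 for Mcm6, 0.99 for Mcm5, 0.74 for Mcm3, 0.56 for Mcm7, 0.30 for Mcm4 and 0.24 for Mcm2, the last 2 turning negative (-0.07 and -0.13) on the TPM scale. Mcm5 had 15.1, 17.4 and 17.8 FPKM in B6 and 28.6, 36.1 and 38.9 in SLE123 (± 0.13 SE, limma, adjusted p = 0.000974). Mcm2 had 25.2, 27.7 and 26.5 FPKM in B6 and 28.8, 29.1 and 37.3 in SLE123. These groups did not overlap, but the difference did not pass the threshold (± 0.11 SE, limma, adjusted p = 0.117). It passed in the fit of all 12 mice (limma, adjusted p = 0.039). By level in FPKM the most abundant member was Pcna, with 115, 108 and 115 FPKM in B6 and 112, 142 and 139 in SLE123, and these groups overlapped (0.22 ± 0.11, limma, adjusted p = 0.149). Its ratio of mean FPKM was 1.17.

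The factors that license origins and switch on S phase were higher as well. Cdc6 and Cdc45, which load and activate the helicase, had log2 fold changes of 1.37 and 1.40, Gins2, a partner of Cdc45, had 0.74, and Uhrf1, which copies DNA methylation to the new strand, 1.46. The E cyclins Ccne1 and Ccne2 had 1.07 and 0.76, the latter with an adjusted p of 0.026 by limma. The Ccne2 call was lost with no filter on low values (limma, adjusted p = 0.0847) and without any 1 of the untreated B6 mice (0.0611 to 0.0872). E2f1, an activator of replication genes and of its own gene, had 1.67, 1.91 and 1.78 FPKM in untreated B6 and 4.15, 6.00 and 6.23 in untreated SLE123 (1.20 ± 0.15, limma, adjusted p = 0.000827).

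The size of a difference went with how abundant the transcript was in untreated B6. The 34 members under 10 FPKM there had a median ratio of mean FPKM of 3.64 (range 1.58 to 4.56), and the 11 members at 10 FPKM or more had 1.71 (range 1.17 to 3.50). The 8 S-phase members at 10 FPKM or more, the 6 helicase subunits among them, had a median ratio of 1.60, and the 10 below had 2.98. Within the S-phase genes, the 8 with an E2F word had a median ratio of 2.16 and the 7 without one 2.74. Baseline and difference share the untreated B6 values, so these are descriptions.

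**Figure D3:**
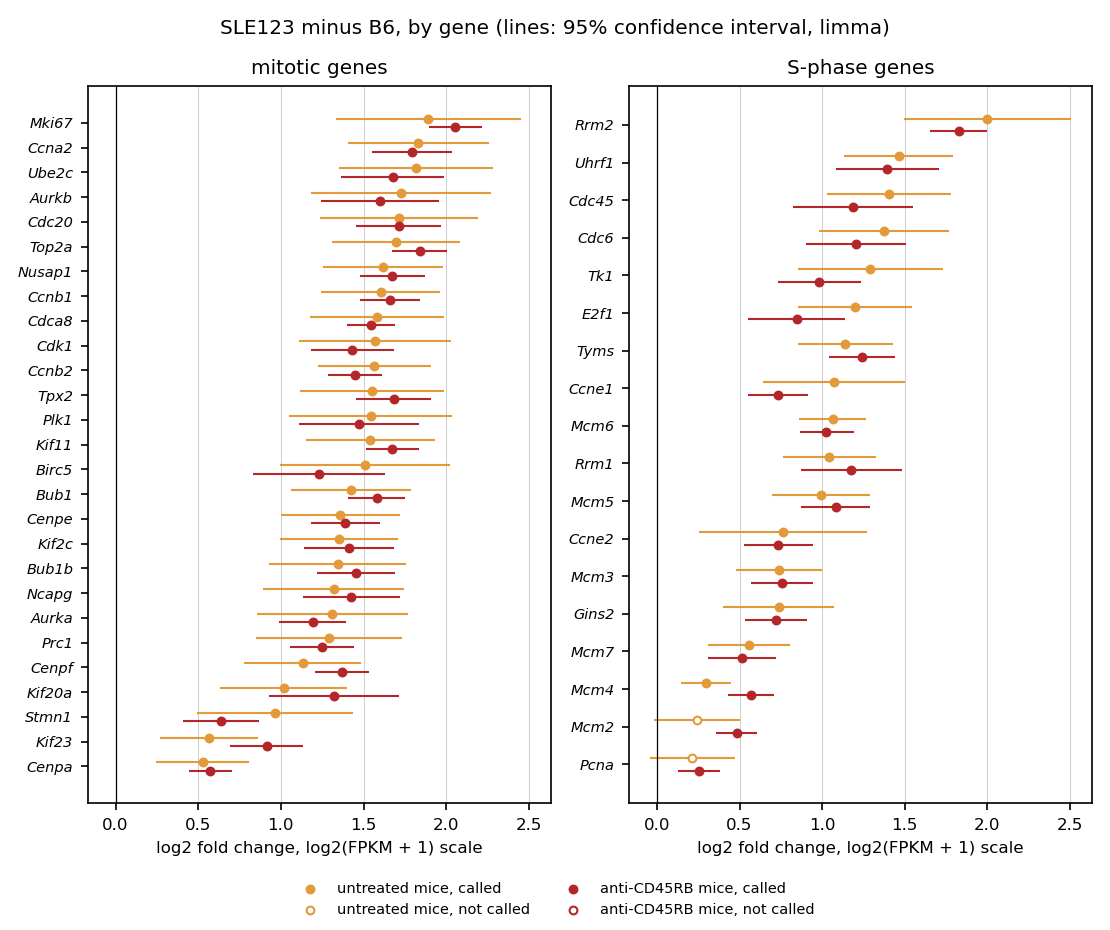
Log2 fold change of SLE123 over B6 (x axis, log2(FPKM + 1) scale) for each mitotic gene (left) and S-phase gene (right), in untreated mice (orange) and in anti-CD45RB mice (red), with 95% confidence intervals from limma; filled points passed the adjusted p of 0.05. All points lie right of 0, Mki67 and Rrm2 head the lists, and the open points are Mcm2 and Pcna in untreated mice.

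Treated mice of the strains differed in the same direction, and these are different animals from the untreated ones. All 45 members were called higher in treated SLE123 than in treated B6 (limma), against 29.6% of genes higher and 22.5% lower, and in 45 the groups did not overlap, against 34.7%. The median log2 fold change was 1.32, with 1.45 for the mitotic and 0.91 for the S-phase genes, beside 0.03 over all genes. Mitotic scores were 2.22, 2.51 and 2.34 in treated B6 and 3.87, 3.75 and 3.79 in treated SLE123, and S-phase scores were 3.19, 3.45 and 3.29 against 4.29, 4.18 and 4.25. The treated SLE123 mice lay close together, with a mitotic SD of 0.058 (n = 3).

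The gene with the largest difference here was Mki67, with 7.0, 8.28 and 7.28 FPKM in treated B6 and 33.4, 33.6 and 36.1 in treated SLE123 (log2 fold change 2.05 ± 0.07, limma, adjusted p = 7.77e-06). No mouse of either strain came near the other strain. Top2a had 12.1, 14.1 and 12.5 FPKM against 52.4, 46.4 and 47.8 (1.84 ± 0.07, limma, adjusted p = 1.38e-05), and Rrm2 had 8.44, 10.3 and 9.81 against 36.7, 37.1 and 34.7 (1.83 ± 0.07, limma, adjusted p = 1.56e-05). Cdca8, Kif11 and Ccnb1 came next by adjusted p, with log2 fold changes of 1.54, 1.68 and 1.66. At the other end, Pcna had 112, 121 and 112 FPKM against 146, 134 and 133, a log2 fold change of 0.26 ± 0.05 (limma, adjusted p = 0.00641), and Mcm2 had 25.2, 27 and 25.8 against 38.2, 34.4 and 37.7, one of 0.48 ± 0.05 (limma, adjusted p = 0.000408). The helicase subunits again differed in size, with 1.08 for Mcm5, 1.03 for Mcm6 and 0.52 for Mcm7.

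**Figure D4:**
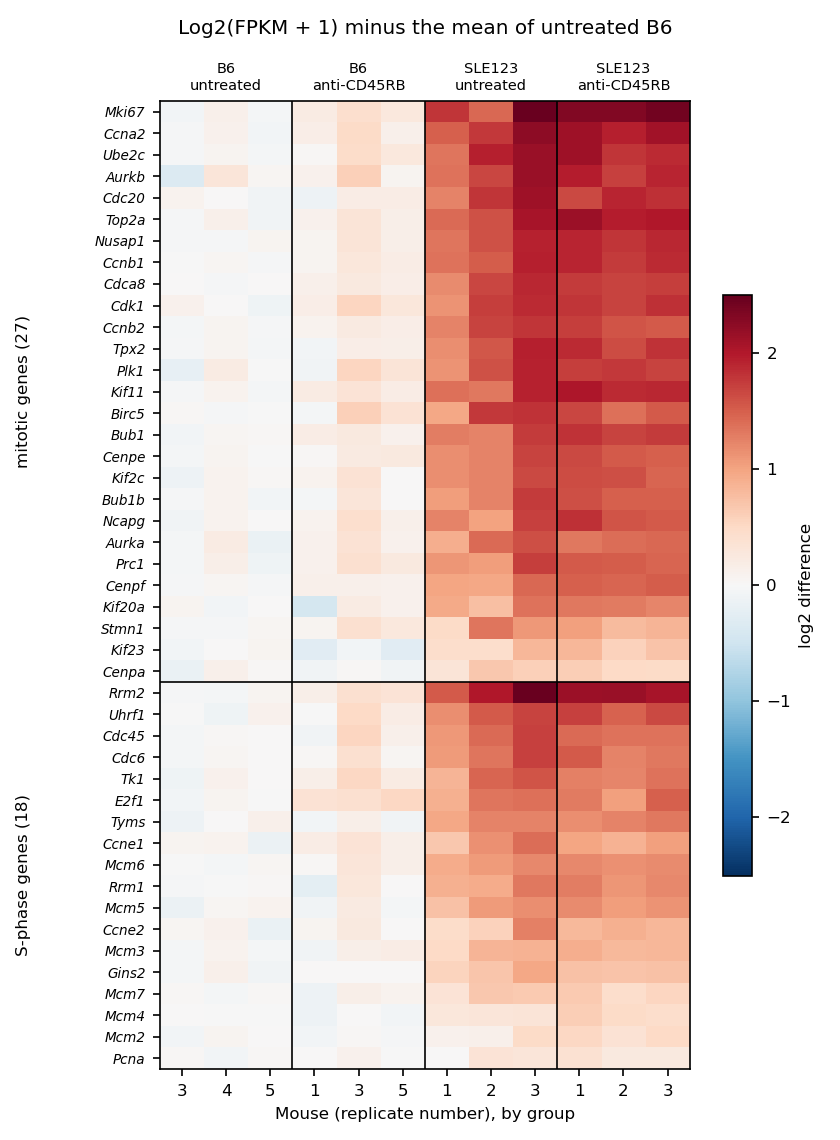
Log2(FPKM + 1) of the 45 members (rows) in the 12 mice (columns, replicate number and group), minus the mean of the 3 untreated B6 mice, so that red is higher and blue lower than untreated B6. The 6 SLE123 columns are deepest in Mki67 and Rrm2 and fade toward Kif23 and Cenpa in the upper block and Mcm4, Mcm2 and Pcna in the lower one, SLE123 untreated replicate 1 is the palest of them in most rows, and the treated B6 columns stay near white, with replicate 3 the warmest.

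Several other measures moved with strain beside these genes. In untreated mice 6 of 6 plasma cell, 8 of 8 B cell, 5 of 5 basophil, 6 of 7 tested erythroid, 4 of 5 tested myeloid, 6 of 6 follicular helper T cell and 4 of 5 regulatory T cell markers were called higher in SLE123, and 0 of 8 T cell markers were called in either direction (limma). Summed myeloid markers were 4.39 to 9.23 FPKM in untreated B6 and 39.2 to 88.2 in untreated SLE123. Summed B cell markers were 6.63 to 7.83 FPKM in B6 and 69.3 to 259 in SLE123, follicular helper markers 54.7 to 67.3 and 310 to 376, regulatory T cell markers 42.2 to 54.6 and 153 to 163, and erythroid markers 6.11 to 10.1 and 46.1 to 69.5. Of the germinal centre markers Mef2b, Rgs13 and Gcsam were at 0 in at least 1 library. The part of these cells in the higher cell cycle transcripts was not tested. Between the treated groups, where 45 of 45 members were called, 6 of 6 plasma cell, 6 of 6 follicular helper T cell, 4 of 5 regulatory T cell and 2 of 5 basophil markers were called higher in SLE123, 0 of 7 erythroid markers were called, and the 8 B cell markers split into 4 higher and 3 lower. Of 8 T cell markers 4 were called higher and 1 lower, and of 5 tested myeloid markers 3 were called lower. Among the untreated SLE123 mice the plasma cell sums (1840, 2710 and 4800 FPKM in replicates 1, 2 and 3) had the same order as the mitotic scores, and among the treated ones they did not. An order of 3 mice cannot decide a link, and none was tested. SLE123 anti-CD45RB replicate 1, with the lowest sum of its group (968 FPKM), was the highest of its group in 33 of 45 members. That mouse's library is also the one that shares the liver transcripts of the B6 libraries, and without it 45 of 45 members were still called between the treated groups.

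Genes of the same pathway outside the 45 were read from lists chosen with earlier results of these data known. Of 30 other mitotic genes, 28 were called higher in untreated SLE123 and 2 lower (limma), against 22.8% and 20.1% of all genes tested. Foxm1, which activates mitotic genes, had 1.72, 2.15 and 2.09 FPKM in B6 and 4.83, 5.14 and 8.56 in SLE123 (log2 fold change 1.23 ± 0.20, adjusted p = 0.00252), and Mybl2, the B-Myb factor of the same machinery, 1.77, 1.98 and 1.77 against 3.78, 5.44 and 7.29 (1.16 ± 0.19, adjusted p = 0.00314). Spc24 of the kinetochore, at 1.82, and the CDK subunit Cks1b, at 1.49, had the largest values of the list. The exceptions were the condensin subunit Smc4, at -0.65, and securin (Pttg1), at -0.35. The Pttg1 call was lost with immunoglobulin left out of the totals (limma, adjusted p = 0.108) and with no filter (0.0651). It was also lost without any 1 untreated B6 mouse and without SLE123 untreated replicate 1 or 3 (0.061 to 0.105). Of 28 other replication genes tested, 21 were called higher and 0 lower, with 23 at an unadjusted p under 0.05 and 21 higher by voom, among them Chaf1a of the histone loader CAF-1 at 1.40 and Gins1 at 1.36. On the TPM scale 14 of these 28 were called higher and 4 lower, against 1914 and 5974 of all 13115 genes. After treatment 28 of 30 and 25 of 28 were higher in SLE123, against 29.6% of all genes. Pttg1 and Smc4 were again lower (-0.53 and -0.62), against 22.5% of all genes.

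The genes that act before S phase did not move with them as a group. The counts below are read beside all genes tested. Of these, 22.8% were called higher and 20.1% lower in untreated SLE123, and 29.6% and 22.5% in treated SLE123. The calls among the G1 genes were near these shares. Of 6 G1 cyclins and kinases, 1 was called higher (Cdk4, 0.33, but -0.05 on the TPM scale) and 1 lower (Cdk2, -0.30) in untreated SLE123. The call of Cdk4 was lost without any 1 of the untreated B6 mice (limma, adjusted p = 0.0617 to 0.0964), and that of Cdk2 with immunoglobulin left out of the totals (0.0802) and without B6 untreated replicate 3 (0.0652) or 5 (0.062). By level in FPKM the most abundant of them was cyclin D2 (Ccnd2), with 98.5, 96.7 and 104 FPKM in untreated B6 and 106, 95.6 and 96.1 in SLE123, groups that overlapped, and cyclin D3 (Ccnd3) had 51.4, 50.1 and 52.6 against 44.1, 55.0 and 38.0, which overlapped too. Between the treated groups Cdk6 was higher, with a log2 fold change of 1.04, and Ccnd3 lower, with -0.41. Of 10 cell cycle inhibitors, 4 were called higher in untreated SLE123, and p21 (Cdkn1a) was among them with 0.13, 0.20 and 0.49 FPKM in B6 and 1.81, 2.27 and 2.57 in SLE123 (1.34 ± 0.15, limma, adjusted p = 0.000579). Cdkn2a (1.51), Cdkn2b (0.99) and Cdkn2c (0.86) were also higher, and Cdkn2d was lower (-0.52). The Cdkn2d call was lost with immunoglobulin left out of the totals (limma, adjusted p = 0.0776), with no filter (0.117) and with no variance trend (0.0528). It was also lost without any 1 untreated B6 mouse and without SLE123 untreated replicate 1 or 3 (0.0885 to 0.125). The inhibitor p27 (Cdkn1b), known for holding T cells in quiescence, had 69.6, 66.4 and 66.7 FPKM in B6 and 71.3, 62.2 and 57.6 in SLE123 and was not called (-0.09, limma, adjusted p = 0.464), while between the treated groups it was lower in SLE123 (-0.32, limma, adjusted p = 0.00109). Of 10 quiescence factors, 4 were called lower and 0 higher in untreated SLE123 (7 at an unadjusted p under 0.05, and 5 lower by voom): Bach2 at -1.24, Foxo1 at -0.97, Foxp1 at -0.72 and Tob1 at -0.48. In treated mice 8 were lower, led by Bach2 (-1.19) and Klf2 (-1.07).

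In B6 mice, the question was whether the antibody changed these genes. It was followed by a rise in 1 of the 45 members, E2f1 (limma), against 8.74% of genes called higher and 6.12% lower. E2f1 had 1.67, 1.91 and 1.78 FPKM in untreated and 2.57, 2.68 and 3.0 in treated B6. The treated mice were all above the untreated ones, with a log2 fold change of 0.43 ± 0.08 (limma, adjusted p = 0.019). This call was lost in the fit of all 12 mice (adjusted p = 0.107) and without B6 anti-CD45RB replicate 5 (0.062), B6 untreated replicate 3 (0.0662) or B6 untreated replicate 4 (0.0543). Rrm2 (0.30 ± 0.08, limma, adjusted p = 0.0538) and Mki67 (0.29 ± 0.09, limma, adjusted p = 0.0634) came next, without overlap between their groups, and both passed by voom on recovered fragments (adjusted p = 0.0235 and 0.00908), as did Kif11 and Stmn1.

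Small positive values were common: 39 of 45 members had one, against 49.3% of genes. By limma 11 members had an unadjusted p under 0.05 (10 positive and the kinesin Kif23 negative, -0.21), against 4238 of 13115 genes. In 15 members the treated mice were higher without overlap, against 19.4% of genes. The median log2 fold change was 0.18 for the mitotic and 0.10 for the S-phase genes, beside 0.00 for all genes, and the mitotic score went from 2.19 ± 0.065 to 2.36 ± 0.145 (SD, n = 3). B6 anti-CD45RB replicate 3 was the highest of its group in 40 of 45 members. Its summed markers were the highest of the group for plasma cells (164 FPKM against 74.7 and 65.6), erythroid cells (22.3 against 9.72 and 14.5) and B cells (36.6 against 33.5 and 28). For myeloid cells (48.7 against 114 and 49) and basophils (12.4 against 19.3 and 28.9) this mouse had the lowest sums. Without this mouse the medians were 0.12 and 0.03 and E2f1 was still called (adjusted p = 0.0485). Markers of other cells rose in the same comparison: 7 of 8 B cell, 5 of 5 tested myeloid and 4 of 5 basophil markers were called higher, and 4 of 8 T cell markers lower, with summed B cell markers at 28 to 36.6 FPKM in treated mice. Their part in these values was not tested.

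The wider lists are read beside all 13115 genes tested, of which 8.74% were called higher and 6.12% lower in treated B6. An unadjusted p under 0.05 was found for 4238 of these genes (limma). Of the 6 G1 cyclins and kinases, 3 were called higher and 0 lower in treated B6 (limma), also by voom, with 3 at an unadjusted p under 0.05. The D cyclins Ccnd2 and Ccnd3, which carry growth signals to the cell cycle, were among them. Ccnd3 went from 51.4, 50.1 and 52.6 FPKM to 65.9, 65.2 and 67.1 (0.36 ± 0.03, limma, adjusted p = 0.00143) and Ccnd2 from 98.5, 96.7 and 104 to 121, 114 and 121 (0.25 ± 0.04, limma, adjusted p = 0.0132). Neither gene overlapped between its groups. Ccnd1 (0.53) was also called but stayed at or under 1.08 FPKM. Of the inhibitors Cdkn1b had 0.16 and Rb1, the brake on E2F, was at -0.39 (limma, adjusted p = 0.0368 and 0.0241). Among the 30 other mitotic genes 3 were called higher: Cdc25b, the phosphatase that activates CDK1, went from 26.5, 29.2 and 25.7 FPKM to 47.5, 47.9 and 52.7 (0.84 ± 0.06, limma, adjusted p = 0.000773), Racgap1 from 4.57, 5.12 and 5.68 to 9.06, 8.94 and 9.62 (0.74 ± 0.08, limma, adjusted p = 0.00297), and Cks2 had 0.64. None of the 30 was called lower (1 by voom), and 6 had an unadjusted p under 0.05. Of the 28 replication genes tested, 2 were called higher, E2f2 (0.59) and E2f8 (0.34), and 2 lower, Gins3 (-0.35) and Cdc7 (-0.27). The calls in the mitotic and replication lists were thus near the share of all genes called higher, and do not set these lists apart. Quiescence factors were called higher in 3 of 10: Klf2 went from 215, 206 and 216 FPKM to 366, 338 and 357 (0.73 ± 0.04, limma, adjusted p = 0.000363), with Tob1 at 0.33 and Slfn2 at 0.26, and 0 of the 10 were called lower (0 by voom), with 4 at an unadjusted p under 0.05. Many of these calls were near the threshold. In the fit of all 12 mice Ccnd3 (limma, adjusted p = 0.0677), Ccnd1 (0.0734), Rb1 (0.161), Cdkn1b (0.24), Cks2 (0.0995), E2f8 (0.187), Cdc7 (0.0679) and Slfn2 (0.247) were no longer called. Ccnd2 was lost without B6 untreated replicate 3 (limma, adjusted p = 0.0502) or 4 (0.0543), and Rb1, Cdkn1b, Cks2, E2f2, E2f8, Cdc7, Gins3 and Slfn2 were each lost in at least 4 of the 6 fits without 1 mouse.

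In SLE123 mice 0 of the 45 members were called by limma, against 0.0381% of genes called in either direction, and 0 by voom. An unadjusted p under 0.05 by limma was found for 2 members (Cenpf 0.36 and Mcm4 0.21), against 1369 of 13115 genes. The log2 fold change was positive in 37 of 45 members, against 58.6% of genes. Its medians were 0.20 for the mitotic and 0.09 for the S-phase genes beside 0.04 for all genes. In 2 members the treated mice were higher without overlap, against 13.7% of genes. Mki67 had the largest value, 0.45 ± 0.24 (limma, adjusted p = 0.486), with 22.9, 17.7 and 37.3 FPKM in untreated and 33.4, 33.6 and 36.1 in treated mice. Its untreated mice spanned more than the gap between the groups. Top2a had 31.6, 35.8 and 50.1 FPKM in untreated and 52.4, 46.4 and 47.8 in treated mice (0.34 ± 0.16, limma, adjusted p = 0.475). Treated mice lay inside the untreated range or just above it. The 95% confidence interval of Mki67 ran from -0.11 to 1.02, which is wide beside its value.

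These values depended on SLE123 untreated replicate 1, the mouse with the lowest levels in 38 of 45 members. Without it 16 of 27 mitotic and 6 of 18 S-phase genes stayed positive, and the medians were 0.05 and -0.05. Without SLE123 untreated replicate 3, the highest in 41 members, 26 of 27 and 18 of 18 were positive, with medians of 0.37 and 0.17. On the TPM scale 27 of 27 and 18 of 18 were positive, with medians of 0.40 and 0.28 beside 0.22 for all genes, and with immunoglobulin left out of the totals the medians were 0.15 and 0.04. The 3 untreated mice also differed in transcript length balance, read as each mouse minus the mean of the other mice of its group. In replicate 2 the 22 members longer than 3370 bases had a mean of -0.15 log2 units and the other 23 a mean of 0.10. Over all genes the median was -0.17 for those of at least 3647 bases and 0.15 for those of at most 1941 bases. In replicate 1 these values were -0.29 and -0.53 for the members and 0.16 and -0.08 for the longest and shortest genes, and in replicate 3 the members were at 0.44 and 0.44. Their part in the spread of the group was not tested. In the other cell cycle lists 0 genes were called in SLE123 by limma and by voom, among 6 G1 genes (2 at an unadjusted p under 0.05), 10 inhibitors (2), 28 replication genes (2), 30 mitotic genes (3) and 10 quiescence factors (1).

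**Figure D5:**
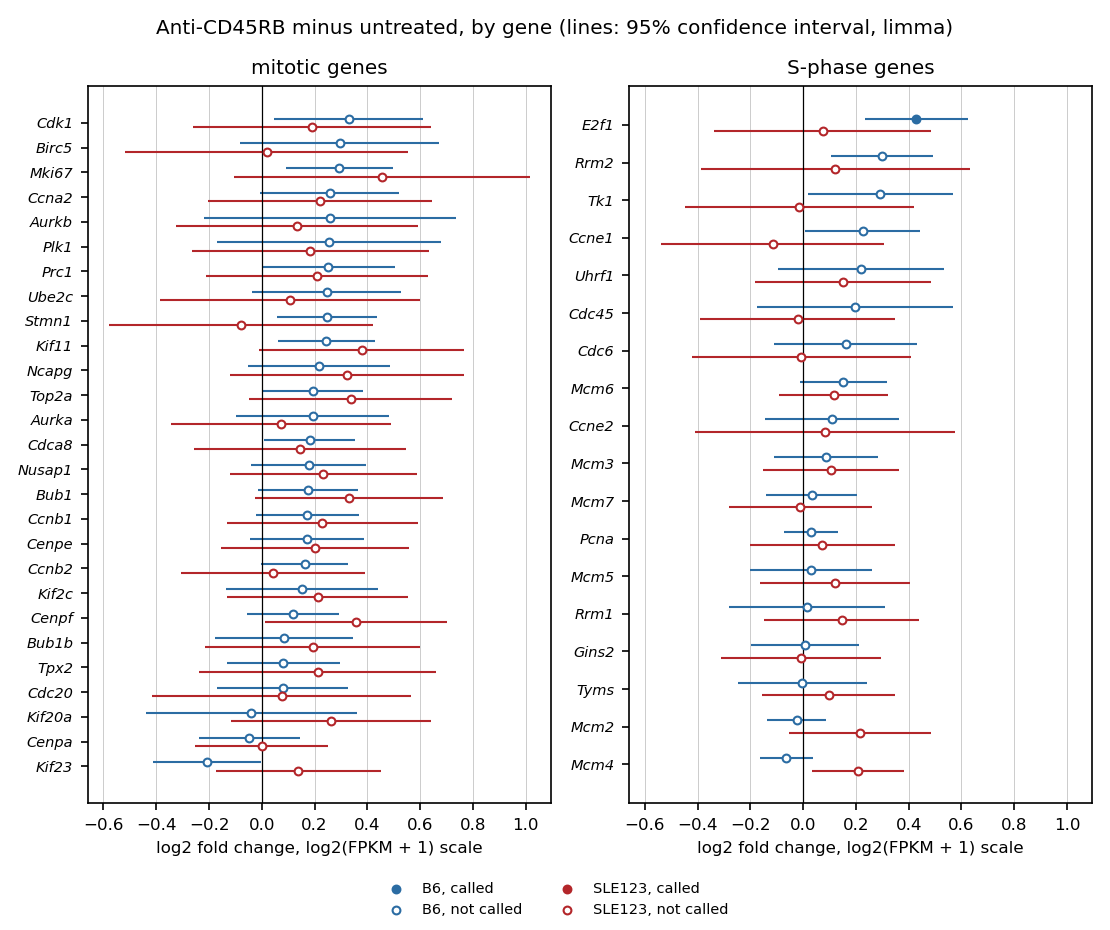
Log2 fold change of anti-CD45RB over untreated mice (x axis, log2(FPKM + 1) scale) for each mitotic gene (left) and S-phase gene (right), in B6 (blue) and SLE123 (red), with 95% confidence intervals from limma; filled points passed the adjusted p of 0.05. E2f1 in B6, at 0.43, is the only filled point, and the SLE123 intervals are the wider ones in most genes.

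Whether the antibody acted differently in the strains was tested as an interaction, the change in SLE123 minus the change in B6. None of the 45 members was called by limma, against 3.64% of genes called in either direction, and 0 by voom. Only 1 member had an unadjusted p under 0.05 by limma, against 3298 of 13115 genes. That member, Mcm4, singled out after its values were seen, had an adjusted p of 0.0774 by limma, with an interaction of 0.27 ± 0.08 on the log2 scale. Its values were 28.2, 28 and 28 FPKM in untreated and 25.7, 28.2 and 26.5 in treated B6, and 34.5, 34.6 and 35.1 in untreated and 43.3, 39.3 and 38.4 in treated SLE123. The groups overlapped in B6 and did not in SLE123. E2f1, called in B6 alone, had an interaction of -0.36 ± 0.20 (limma, adjusted p = 0.293), so a different response in the strains was not shown for it, and Mki67 had 0.16 ± 0.28 (limma, adjusted p = 0.75). The median interaction was 0.05 for the mitotic and -0.03 for the S-phase genes beside 0.04 for all genes. These medians turned with the mice and the scale: they were 0.20 (24 of 27 positive) and 0.07 without SLE123 untreated replicate 3, -0.08 (8 of 27) and -0.13 without SLE123 untreated replicate 1, and 0.22 (24 of 27) and 0.15 on the TPM scale, where that of all genes was 0.23. Without SLE123 untreated replicate 1, 4 members were called: Mcm4 (0.27) and, with negative values, Stmn1 (-0.57), Ccne1 (-0.54) and Tk1 (-0.53), while calls over all genes went from 478 to 2917. Outside the 45, 1 of 30 other mitotic genes was called, Cdc25b at -0.86 ± 0.09 (limma, adjusted p = 0.00067), whose SLE123 values were 63.9, 61.6 and 61.8 FPKM in untreated and 60.03, 63.4 and 61.1 in treated mice. Of 10 quiescence factors 1 was called, Tob1 at -0.44 (limma, adjusted p = 0.0257), a call lost on the TPM scale (adjusted p = 0.3) and in most fits without 1 mouse.

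For 16 members the exons overlap those of another gene, at least 10% of their exon bases in 7 (Ccna2, Kif20a, Ube2c, Prc1, Ncapg, Gins2 and Ccne2), in each of these with a gene on the opposite strand. Gins2 shares 67.3% of its exon bases with Gse1, which averaged 12.4 FPKM against 1.07 for Gins2, and Kif20a shares 29.3% with Cdc23. Whether the counting used strand is not given in the sources used here, so reads of these partners cannot be told apart and the values of Gins2, Kif20a and Ccne2 are uncertain. Ccnb2 and Pcna have named pseudogenes above 0 in the table, Ccnb2-ps at 2.04 and Pcna-ps2 at 0.767 FPKM on average, and reads could be split between them.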

How the data were processed

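RNA-Seq libraries of CD4+ T cells from 12 mice, 3 in each of 4 groups set by the sample labels, were analysed. The authors deposited FPKM per gene and mouse. CASAVA 1.8 and STAR with the mm10 build stand in the submitters' processing notes, while the counter and its use of strand are not given in the sources used here. Gene symbols came from GENCODE M21, for 34490 of 35275 gene IDs. Dividing low FPKM values by their steps gave whole fragments for all 23230 genes above 0, within 0.02 fragments. At the depths found, 3 fragments on a transcript of 2000 bases equal 0.0634 to 0.111 FPKM, which covers counting error only.

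FPKM was tested as log2(FPKM + 1), which understates the change of low genes, in the 13115 genes that averaged 0.5 FPKM or more, with limma 3.58.1 (R 4.3.3; trended variance, Benjamini-Hochberg adjustment over all genes tested). The 4 pairwise comparisons each used 6 mice and the interaction all 12. Counts were not used as the main unit, so the count test of the study's methods was replaced by limma, with voom on the recovered fragments as an alternative. An exact permutation test of 3 against 3 mice cannot go below 0.1 and was not used for single genes. Tables and sequence searches used Python 3.11.15 and pandas 2.3.3, and the fitting was tested on simulated data.

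The members and the lists of other genes were chosen with earlier results of these data known. Any member could be named. Values per mouse were given for 12 members named beforehand and for up to 10 called members a comparison by adjusted p, and at most 4 other genes a list and direction by size of change, plus Cdkn1a, Cdkn1b, Ccnd2, Ccnd3, Foxm1 and Mybl2. Alternatives were another pseudocount (0.1), a filter at 1 FPKM or none, TPM, median centring, no variance trend, voom, 1 fit of all 12 mice, a block for the replicate number, and fits without 1 mouse. Leaving immunoglobulin out of the totals was added after the data were seen.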

Additional observations from a re-analysis of the deposited data

Results flagged for a closer look

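No member had a called interaction of strain and treatment, and 2 genes of the wider cell cycle lists had one (limma, Benjamini-Hochberg adjustment). They were 1 of 30 other mitotic genes and 1 of 10 quiescence factors, with 0 of 6 G1 genes, 10 inhibitors and 28 replication genes. Of all genes tested 3.64% were called, so these calls do not set the lists apart. For Cdc25b the interaction was -0.86 ± 0.09 on the log2 scale (adjusted p = 0.00067), with all 3 treated B6 mice above the untreated ones and the SLE123 groups overlapping. For Tob1, an antiproliferative factor of resting T cells, it was -0.44 ± 0.09 (adjusted p = 0.0257), and values were 23.0, 23.6 and 21.8 FPKM in untreated and 28.9, 30.6 and 27.4 in treated B6, and 17.5, 15.5 and 15.3 in untreated and 14.7, 15.2 and 14.8 in treated SLE123. The Tob1 call was lost on the TPM scale (-0.25, limma, adjusted p = 0.3) and in most fits without 1 mouse.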

How the results depend on the processing

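Between the strains, 39 members were called in untreated mice on the TPM scale, 42 with no filter, 44 in the fit of all 12 mice and 42 to 44 without 1 mouse, against 43; in treated mice 44 were called on the TPM scale (not Pcna, adjusted p = 0.458) and 45 without any 1 mouse. On the TPM scale the median of all genes was -0.38 in untreated and -0.14 in treated mice, against -0.03 and 0.03 in FPKM. Over all genes TPM gave 1914 higher and 5974 lower calls in untreated mice (2990 and 2631 in FPKM). In treated mice it gave 2442 and 4480 (3881 and 2955 in FPKM). With immunoglobulin left out the calls were 3666 and 1770 in untreated and 4634 and 2334 in treated mice. Signs turned in untreated mice on the TPM scale for Mcm2 (-0.13), Mcm4 (-0.074), Pcna (-0.17) and Cdk4 (-0.051), with immunoglobulin left out for Cdkn1b (0.029) and Ccnd2 (0.11), and for Ccnd2 with median centring (0.008) and without 1 mouse (-0.057 to 0.024). In B6, 1 member was called after treatment, and 2 with a filter at 1 FPKM, 2 on the TPM scale, 3 with median centring, 5 by voom, 0 in the fit of all 12 mice and 0 to 4 without 1 mouse (4 without B6 anti-CD45RB replicate 1). In SLE123 0 members were called without any 1 mouse. Called interactions ranged from 0 to 4 without 1 mouse, and that of Mki67 from -0.07 to 0.45. Score differences moved beyond 1 SD with T cell markers subtracted (B6 treatment 0.30 mitotic and 0.25 S-phase, treated strains 1.33 and 0.81), with a pseudocount of 0.1 (mitotic 1.69 in untreated and in treated strains, S-phase 1.08 in treated strains) and on the TPM scale (S-phase 0.26 for SLE123 treatment and 0.71 for untreated strains). The causes were not tested. Of 895 refits of 56 named genes between the treated strains 892 kept their side of the threshold and their sign, as did 975 of 1018 for 68 genes between the untreated strains, 64 of 64 for 4 genes in SLE123 after treatment and 153 of 168 for 8 genes in the interaction. In B6 after treatment 217 of 303 for 19 genes did, 79 were no longer past the threshold and 7 newly passed it.

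The sample labels do not say whether the replicate numbers pair the mice. Deviations from group means correlated at -0.14 and -0.09 for same-numbered mice in B6 and at 0.14, -0.16 and 0.27 in SLE123. Different-numbered mice ranged from -0.13 to 0.2 in B6 and from -0.33 to 0.21 in SLE123. With 3 mice a group these values cannot settle whether mice were paired. With the replicate block 0 members were called in B6, 0 in SLE123, 44 between treated strains and 0 in the interaction, and 0, 4, 3414 and 34 of all genes. Untreated strains share only replicate 3 and had no block fit. The SD of the members in untreated SLE123 had a median of 0.316 on the log2 scale.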
